A study of Homo sapiens with 15 samples.

Results

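The regions described here are places in the genome of TF-1 cells where the transcription factors GATA2 and RUNX1 were both called in both cell lines of the study and where the cohesin subunit SMC3 was called in neither. They were found by joining the peaks of the 6 deposited lists that shared at least 1 bp on an autosome, and by keeping the joined regions with a peak in the Q592* and WT lists of GATA2 and of RUNX1 and with none in the Q592* and WT lists of SMC3. Of 96158 autosomal regions 2185 met this rule, which is 2.27%. The regions were chosen by the peak calls of all 6 lists, so their presence in some lists and absence from others is a description and not a finding.

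TF-1 is a human erythroleukemia cell line. The Q592* line was transduced with an inducible vector for RAD21 Q592*, a form that ends at a premature stop codon, and the WT line with the same kind of vector for wild-type RAD21. Both received doxycycline for 6 days, and the labels describe no change to the cells' own RAD21 gene. ChIP used antibodies to GATA2, RUNX1 and SMC3. Crosslinking took 10 minutes in 1% formaldehyde, and shearing left fragments averaging 200 to 400 bp. The labels list 2 libraries for every group of a line and target, apart from a single (1) library of RUNX1 in Q592*, and 2 inputs for each line. Each group is represented by 1 peak list, taken as pooled over its libraries. The recovered depth of the 6 ChIP pools was 93.5 to 108 M reads (M standing for 1000000), and that of their backgrounds 72.6 to 95.3 M. There is no replicate spread to set a difference against, and no test between the lines was possible.

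GATA2 is a zinc finger protein that binds the DNA motif for which its family is named and keeps blood stem and progenitor cells in an immature state. RUNX1 binds DNA as a heterodimer with CBFB and is needed for blood stem cells to arise in the embryo. The pair is known to occupy many of the same enhancers in blood progenitors, often with TAL1, LMO2, ERG and FLI1. Cohesin is a ring of SMC1A, SMC3 and RAD21 that also carries a STAG subunit. It extrudes loops of chromatin and halts mostly at CTCF sites, and it is also found at active enhancers and promoters.

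Places held by both factors in both lines were common, and more than 1 in 3 of them had no called cohesin. In all, 5980 autosomal regions carried GATA2 and RUNX1 in both lines, 6.22% of all regions. SMC3 was called in neither line at 2185 of them (36.5%, 95% Wilson interval 35.3 to 37.8%), which are the regions described here. It was called in both lines at 2052 (34.3%), in WT alone at 1555 (26.0%) and in Q592* alone at 188 (3.14%). The regions without SMC3 held 14.2% of all Q592* RUNX1 peaks and 22.8% of all WT RUNX1 peaks. They held 3.72% of the Q592* GATA2 peaks and 5.74% of the WT GATA2 peaks. With about 1 peak of each list in a region, these shares follow the lengths of the lists. Intervals cover counting error only.

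The absence of a call is set by a threshold, and part of the regions kept out by SMC3 lay close to it. Each list stops at a −log10 q of about 2. The weakest Q592* SMC3 peak that kept a region with both factors out had a −log10 q of 2.00, and the weakest WT one had 2.01. Among the 1555 regions kept out by a WT SMC3 peak alone, 460 had a −log10 q under 5 for that peak and 95 under 3. Among the 188 kept out by a Q592* SMC3 peak alone, 85 were under 5 and 11 under 3. The median of these peaks was 6.63 in WT and 5.17 in Q592*, against 18.2 and 24.7 over the whole SMC3 lists. On the inner side, 45 of the 2185 regions had a −log10 q under 3 in at least 1 of the 4 factor lists. Under 5 there were 174 in the WT RUNX1 list, the most of the 4 lists. The lowest values were 2.25 (GATA2) and 2.09 (RUNX1) in Q592* and 2.50 and 2.18 in WT.

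GATA2 ranked well above the middle of its lists at these regions, and RUNX1 less so, close to the middle in WT. The rule leaves out regions called in Q592* or WT alone, and the lists differ in length. The ranks are therefore a description. The coverage of a peak is given here as summit reads per M, the number of ChIP reads over the peak's summit for each M reads of its pool. For GATA2 it was 0.245 at the lowest, 1.19 at the median and 7.29 at the highest region in Q592*, and 0.205, 0.632 and 5.01 in WT. The median GATA2 peak had a fold enrichment of 8.64 in Q592* and 5.60 in WT. Ranked within its own list by −log10 q, it stood at percentile 81.6 in Q592* and 71.6 in WT.

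For RUNX1 the coverage ran from 0.234 through a median of 0.740 to 5.66 reads per M in Q592*, and from 0.200 through 0.477 to 3.13 in WT. The median fold enrichment was 5.99 in Q592* and 4.65 in WT, at percentile 69.0 in Q592* and 54.7 in WT. A −log10 q of at least 100 was reached for GATA2 at 557 regions in Q592* (25.5%) and 102 in WT (4.67%), against 9.34% and 4.46% of all autosomal regions with a GATA2 peak of that line. For RUNX1 it was reached at 98 regions in Q592* (4.49%) and 8 in WT (0.366%), against 3.76% and 0.852% of all with a RUNX1 peak. The share thus stood well above that of the list for Q592* GATA2 alone. Each of these backgrounds includes regions called in that line only, which the rule leaves out. For Q592* GATA2 they were 24842 of 57275. That background also holds the 17734 regions with GATA2 in both lines and neither RUNX1 nor SMC3. Their median −log10 q for Q592* GATA2 was 20.6. It was 52.6 at the regions described here and 164 at regions with both factors and SMC3 in both lines. The shares therefore cover unlike regions and are a description.

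The region with the strongest support in all 4 factor lists lay on chromosome 10 from 96059042 to 96059880 (hg19, as are all positions here, counted from 1). GATA2 had 653 summit reads there in Q592* and 337 in WT, and RUNX1 535 in Q592* and 310 in WT. Its lowest percentile over the 4 lists was 99.8. The nearest SMC3 peak was 18.7 kb away in Q592* and 18.8 kb in WT.

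The next of the 10 strongest were both on chromosome 6. From 36921824 to 36922350, GATA2 had 501 summit reads in Q592* and 266 in WT, and RUNX1 had 352 and 190. From 160522333 to 160522912, GATA2 had 594 in Q592* and 301 in WT, and RUNX1 had 400 and 204. SMC3 was called 1471 bp from the second in Q592* and 1504 bp from it in WT, and 63.4 kb from the first in Q592* and 22.9 kb in WT.

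A region on chromosome 18 from 59932203 to 59932724 had the highest fold enrichments among the 10 in Q592*, 38.6 for GATA2 and 36.8 for RUNX1, against 18.0 and 19.6 in WT. Its local background was at the genome-wide value (1.00) in all 4 lists, whereas the 2 regions of chromosome 6 had 4.31 to 7.37 times that value. The others of the 10 lay on chromosome 9 from 124409264 to 124409731, chromosome 3 from 196238591 to 196239376 and from 15094185 to 15094777, chromosome 1 from 12043483 to 12043944, chromosome 4 from 39370849 to 39371317 and chromosome 2 from 89166283 to 89166953. All 10 had more summit reads in Q592* than in WT for both factors. By fold enrichment the strongest region went the other way for GATA2, with 28.3 in Q592* and 32.3 in WT. Its local background in the GATA2 lists was 3.53 times the genome-wide value in Q592* and 1.56 times in WT. Its fold for RUNX1, and those of the rest of the 10 for both factors, were higher in Q592*.

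Regions with cohesin in both lines carried far more GATA2 and somewhat more RUNX1 than regions without it. The median GATA2 coverage was 1.19 reads per M in Q592* and 0.632 in WT at regions without SMC3, against 2.52 and 1.23 at the 2052 regions with SMC3 in both lines. The median RUNX1 coverage was 0.740 in Q592* and 0.477 in WT without SMC3, against 0.946 and 0.573 with it. Regions with SMC3 in WT alone lay between in coverage, at 1.59 and 0.837 for GATA2 and 0.787 and 0.506 for RUNX1. The 188 regions with SMC3 in Q592* alone had 1.83 and 0.832 for GATA2. Their RUNX1 medians were 0.759 in Q592* and 0.439 in WT, and the WT value is below that of regions without SMC3. The 17734 regions with GATA2 in both lines and neither RUNX1 nor SMC3 were lower still for GATA2, at 0.661 in Q592* and 0.400 in WT. By fold enrichment over the local background, regions with SMC3 in WT alone lay between for GATA2 but not for RUNX1. Their median RUNX1 fold in Q592* was 5.61, against 5.99 without SMC3 and 6.76 with SMC3 in both lines. In WT it was 5.13, against 4.65 and 5.09.

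**Figure D1:**
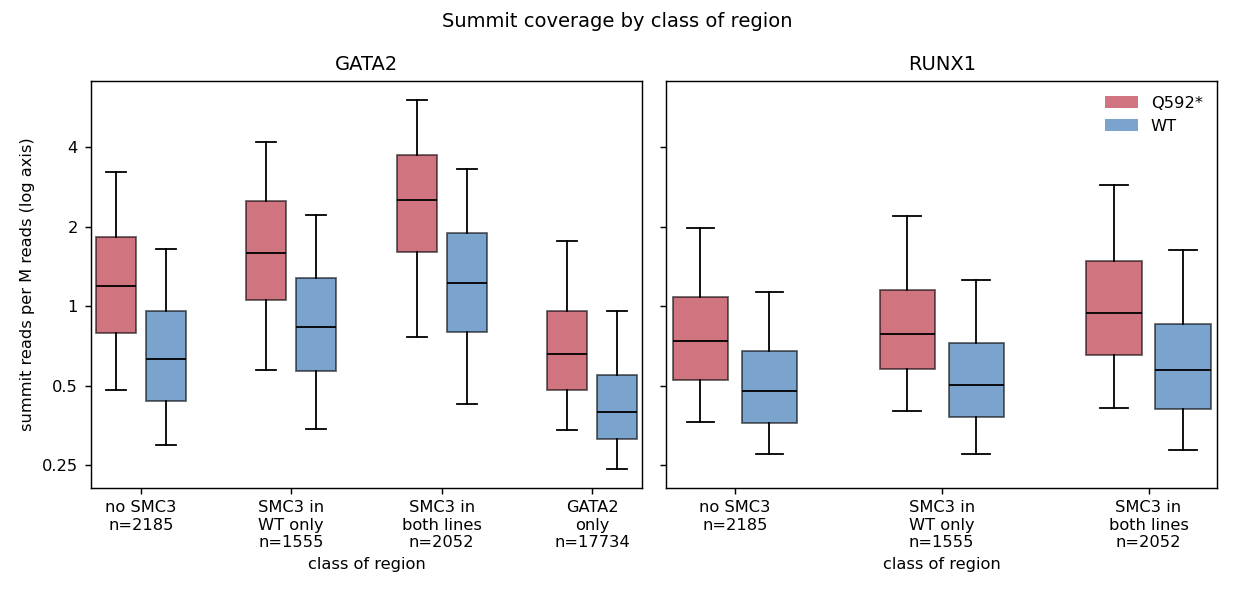
Summit reads per M reads (log axis) of GATA2 (left) and RUNX1 (right) by class of region, Q592* in red and WT in blue; boxes span the quartiles around the median and whiskers the 5th to 95th percentile of regions, which are not replicates. The GATA2 median is 1.19 in Q592* and 0.632 in WT without SMC3, against 2.52 and 1.23 with SMC3 in both lines, and the RUNX1 medians lie much closer together.

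Seen from the other side, the share of regions without cohesin varied strongly with GATA2 coverage and less with RUNX1 coverage. The 5980 regions with both factors in both lines were split into quartiles of coverage. By Q592* GATA2, 58.9% of the lowest quartile had no SMC3 call (56.5 to 61.4%), then 43.6%, 29.4% and 13.9% (12.2 to 15.7%) in the highest. By WT GATA2 the shares were 59.1%, 41.8%, 30.4% and 14.6%. By RUNX1 the shares were 46.3%, 37.8%, 33.2% and 28.5% over the quartiles of Q592*, and 43.5%, 39.0%, 35.2% and 28.2% over those of WT.

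**Figure D2:**
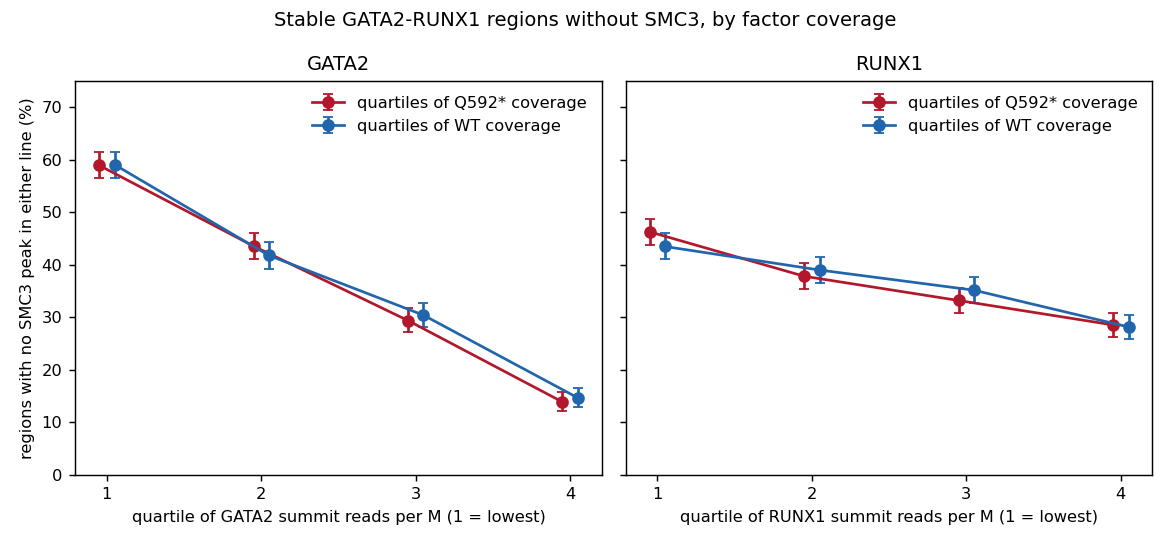
Percentage of the 5980 regions with GATA2 and RUNX1 in both lines that had no SMC3 peak in either line, by quartile of GATA2 (left) or RUNX1 (right) summit reads per M in Q592* (red) or WT (blue), with 95% Wilson intervals. The share drops to 13.9% (Q592*) and 14.6% (WT) in the highest GATA2 quartile and to 28.5% and 28.2% in the highest RUNX1 quartile.

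Width moved together with GATA2 coverage. Regions without SMC3 had a median width of 450 bp (442 to 459), against 693 bp with SMC3 in both lines. Of the 2185 regions 2107 (96.4%) held exactly 1 peak of each factor list. Counting the factor peaks alone, the median with SMC3 in both lines was 655 bp, and the SMC3 peaks extended 819 of those 2052 regions (39.9%). Of the narrowest quartile of the 5980 regions 63.9% had no SMC3 call, and of the widest 12.1%. Within the narrower part, up to the median width of 553 bp, the share was 67.9% in the lowest and 38.4% in the highest quartile of Q592* GATA2, and 67.2% and 40.1% by WT GATA2. Within the wider part it was 35.3% in the lowest and 5.93% in the highest quartile of Q592* GATA2, and 33.9% and 6.25% by WT GATA2. By RUNX1 the narrower part had 63.3% in the lowest and 47.2% in the highest quartile of Q592*, and 59.7% and 46.6% by WT. The wider part had 24.9% and 12.5% by Q592* RUNX1, and by WT RUNX1 184 of 767 in the lowest and 95 of 729 in the highest. In percentage points, the contrast between the factors was smaller within each part than over all 5980 regions. Taken as ratios of the lowest to the highest quartile, the contrast was smaller in the narrower part but larger in the wider part. The part of width in the result was not tested beyond this split.

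GATA2 and RUNX1 coverage were both higher in Q592* at nearly all of these regions. GATA2 was higher in Q592* at 2178 of 2185 (99.7%), against a background of 98.6% of the 32433 autosomal regions with a GATA2 peak in both lines. RUNX1 was higher in Q592* at 2128 (97.4%), against 97.4% of the 7718 regions with a RUNX1 peak in both lines. The direction therefore is that of the whole lists and says nothing particular about these regions. The median log2 ratio of Q592* to WT was 0.90 for GATA2 (95% interval of the median over regions 0.88 to 0.91) and 0.61 for RUNX1 (0.59 to 0.63). The median over all regions with the factor in both lines was 0.80 for GATA2 and 0.65 for RUNX1.

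At least 2-fold higher GATA2 coverage in Q592* was found at 784 regions (35.9%, 33.9 to 37.9%), against a background of 28.2%. That background includes the 17734 GATA2-only regions, whose median ratio was lower. The GATA2 share over the 5980 regions with both factors in both lines was not taken. For RUNX1, at least 2-fold higher coverage was found at 215 (9.84%, 8.66 to 11.2%), against 9.68%, which is the background share. Both were at least 2-fold higher at 134 regions (6.13%), against a background of 6.56% of the 5980 regions with both factors in both lines. No region had at least 2-fold lower coverage in Q592* for either factor, and none of the 32433 or the 7718 regions did (0%). The ratio was larger where coverage was higher. Over quartiles of mean coverage of these regions, the median log2 ratio was 0.76, 0.85, 0.93 and 0.97 for GATA2 and 0.45, 0.55, 0.65 and 0.74 for RUNX1. The median GATA2 ratio was 0.97 at regions with SMC3 in both lines and 0.71 at GATA2-only regions. The regions without SMC3 lay between these classes in ratio as well as in coverage. Regions with SMC3 in WT alone had 0.91 and those with SMC3 in Q592* alone 1.00. Among the classes with both factors in both lines, the regions without SMC3 thus had the lowest GATA2 median. Their RUNX1 median of 0.61 was also the lowest, against 0.66 (SMC3 in WT alone), 0.75 (Q592* alone) and 0.74 (both lines). A region needs a WT peak to be counted, and whether this threshold shapes the weakest quartile was not tested.

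**Figure D3:**
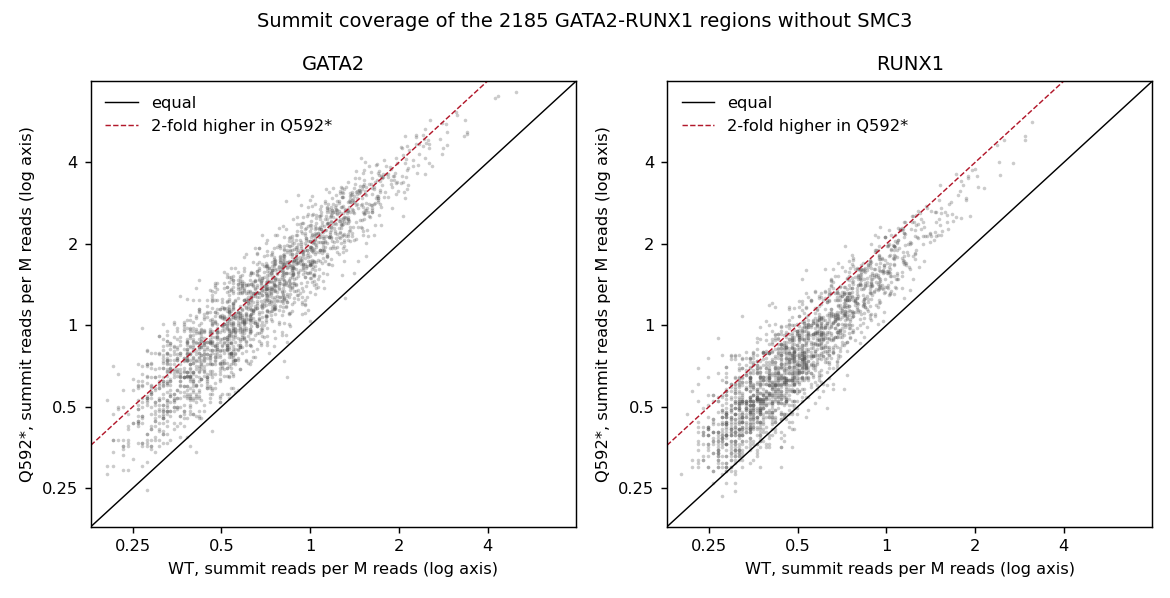
Summit reads per M reads of each of the 2185 regions, Q592* on the vertical and WT on the horizontal axis (both log axes), GATA2 on the left and RUNX1 on the right; each point is 1 region, the solid line marks equal values and the dashed line 2-fold higher values in Q592*. Nearly all points lie above the solid line, and 784 (GATA2) and 215 (RUNX1) on or above the dashed one.

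These ratios depended on how the background was treated. Taken from the deposited fold enrichment over the local background in place of reads per M, the median log2 ratio was 0.61 for GATA2 and 0.37 for RUNX1. The median local background of the regions, relative to the genome-wide value of its list, was 2.15 (GATA2) and 2.18 (RUNX1) in Q592* and 1.70 and 1.79 in WT. Of the 2185 regions 730 (33.4%) had a local background of at least 3 times the genome-wide value in at least 1 factor list, against 38.1% of all 5980 regions with both factors and 42.5% of those with SMC3 in both lines. Without them 1455 remain.

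The same places were strong in both lines. Across the 2185 regions, GATA2 coverage in Q592* and in WT had a Pearson r of 0.93 on the log2 scale, and RUNX1 coverage 0.91. GATA2 and RUNX1 coverage of the same line had an r of 0.53 in Q592* and 0.52 in WT. These describe regions that were measured in the same pools and are no replicates of each other.

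Among regions above the median by their weakest rank, the 5 with the highest ratios had mean log2 ratios of both factors from 1.41 to 1.53. The highest lay on chromosome 16 from 19651275 to 19651811, where GATA2 had 204 summit reads in Q592* and 72 in WT, and RUNX1 had 159 in Q592* and 54 in WT. On chromosome 14 from 88157637 to 88158369, GATA2 had 305 in Q592* and 89 in WT, and RUNX1 106 and 46. The others were on chromosome 10 from 79041441 to 79042079, chromosome 22 from 43774341 to 43774819 and chromosome 17 from 71972848 to 71973470. These regions were chosen for their ratios, so the values are a description.

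Within the same upper part, the 5 with the lowest ratios had mean log2 ratios from 0.08 to 0.16, close to equal coverage. On chromosome 3 from 42936798 to 42937341, GATA2 had 57 summit reads in Q592* and 57 in WT, and RUNX1 had 81 and 72. On chromosome 3 from 11649348 to 11649636, RUNX1 had 68 in Q592* and 67 in WT, which after scaling to depth is a log2 ratio of -0.01. The remaining ones lay on chromosome 2 from 45815436 to 45815994, chromosome 1 from 76712989 to 76713247 and chromosome 10 from 129861371 to 129861791. By fold enrichment those on chromosomes 2 and 10 were lower in Q592* for both factors, and that on chromosome 1 was higher for both. Those on chromosome 3 were mixed. On chromosome 10 the fold was 3.28 in Q592* and 5.00 in WT for GATA2, and 3.34 and 3.96 for RUNX1.

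The 2 factors sat close together within a region. The median distance between the GATA2 and the RUNX1 summit was 31 bp in Q592* (29 to 32) and 34 bp in WT (32 to 36), which is within a single sheared fragment. It was at most 50 bp at 68.8% of the regions in Q592* and at 65.2% in WT, and over 200 bp at 77 regions in Q592* and 79 in WT. At the 2052 regions with SMC3 in both lines the medians were 34 bp in Q592* and 39 bp in WT. The rule asked for peaks in 1 joined region and not for close summits, but the width of a region limits how far apart they can be.

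The summit of each factor also stayed in place between the lines. The Q592* and the WT summit of GATA2 were 17 bp apart at the median, and within 50 bp at 1914 regions (87.6%). Those of RUNX1 were 20 bp apart and within 50 bp at 1854 regions (84.9%). The summits of 1 factor in separate lines thus lay closer to each other than the summits of both factors in 1 line.

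**Figure D4:**
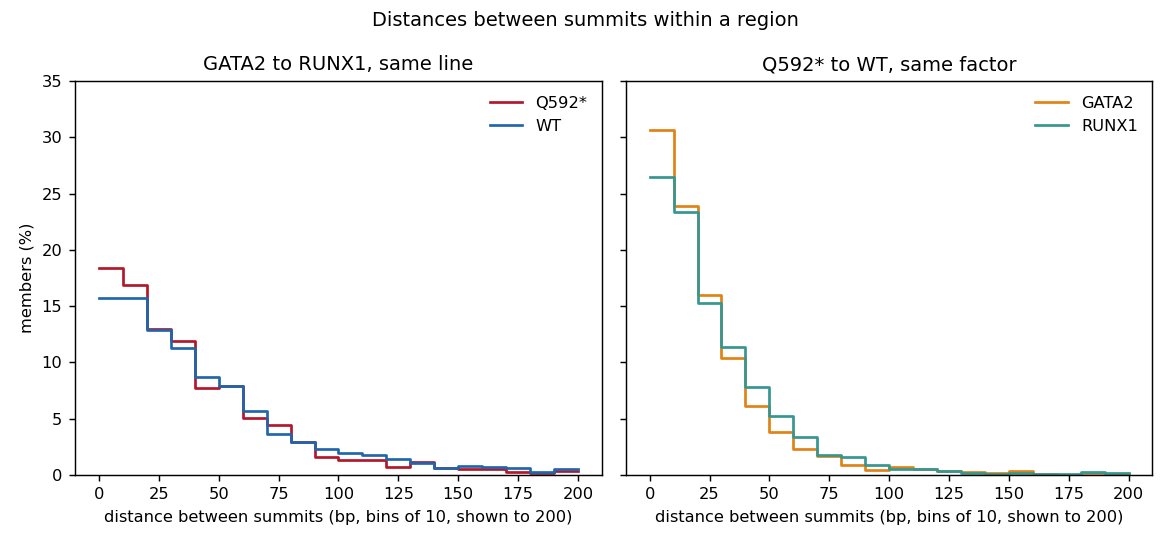
Distribution over the 2185 regions of the distance between summits in bins of 10 bp, as a percentage of regions: GATA2 to RUNX1 in Q592* (red) and WT (blue) on the left, and Q592* to WT for GATA2 (orange) and RUNX1 (green) on the right. Medians are 31 and 34 bp on the left and 17 and 20 bp on the right.

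Called cohesin was mostly more than 10 kb away. The nearest SMC3 peak lay 20.0 kb from a region at the median in Q592* (18.9 to 21.3) and 14.6 kb in WT (13.5 to 15.7). It lay within 1 kb of 67 regions in Q592* (3.07%) and 131 in WT (6.00%), and within 10 kb of 630 (28.8%) and 852 (39.0%). The Q592* SMC3 list is shorter than the WT list, with 32789 peaks against 42353. With the SMC3 lists cut to equal length, the medians of the same 2185 regions were 20.0 kb in Q592* and 19.7 kb in WT.

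The nearest cohesin often lay at about the same distance in both lines. At 1355 regions (62.0%) the distances in Q592* and WT differed by at most 200 bp. At 682 (31.2%) the nearest SMC3 peak was farther away in Q592*, and at 148 (6.77%) it was nearer. These counts rest on the full SMC3 lists, of which that of Q592* is the shorter. They were not taken with lists of equal length or over other regions. The distances resembled those of the regions with GATA2 alone in both lines, whose medians were 20.8 kb in Q592* and 14.3 kb in WT.

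**Figure D5:**
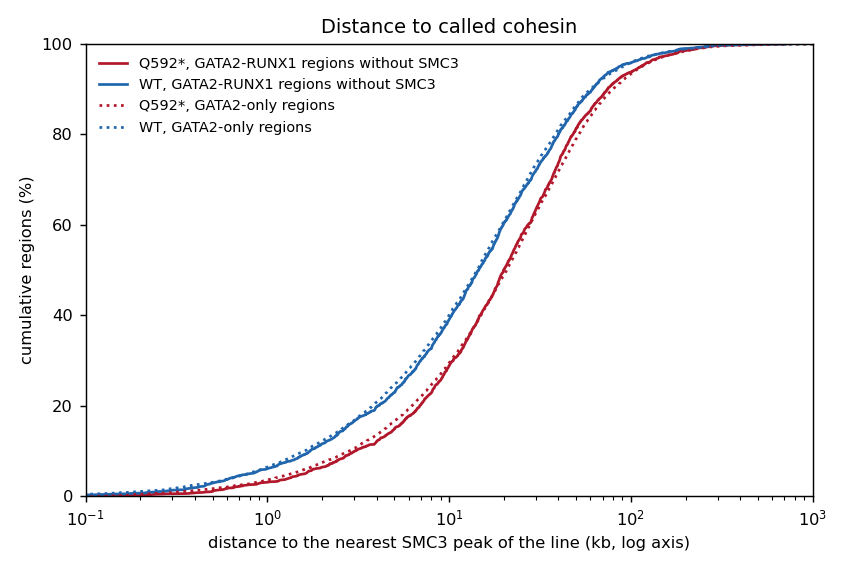
Cumulative percentage of regions by distance to the nearest SMC3 peak of the same line (kb, log axis), Q592* in red and WT in blue, for the 2185 GATA2-RUNX1 regions without SMC3 (solid) and the 17734 GATA2-only regions (dotted). The solid curves reach 50% at 20.0 kb in Q592* and 14.6 kb in WT, and each dotted curve runs close to its solid one.

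The region farthest from cohesin lay on chromosome 5 from 123985368 to 123986289, 712 kb from any SMC3 peak in both lines. GATA2 had 131 summit reads there in Q592* and 50 in WT, and RUNX1 119 in Q592* and 80 in WT. It was followed by chromosome 4 from 178958479 to 178959057 (482 kb) and chromosome 2 from 5779849 to 5780248 (273 kb). At the other end, a Q592* SMC3 peak came within 4 bp of a region on chromosome 17 from 75033106 to 75033496, where the nearest WT SMC3 peak was 18.9 kb away. A WT SMC3 peak came within 12 bp of a region on chromosome 2 from 151023117 to 151023581 and within 14 bp of one on chromosome 17 from 53893870 to 53894661. In Q592* the nearest SMC3 peak to these was 68.3 kb and 7.99 kb away.

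Most of the regions stood alone. Joined across gaps of up to 10 kb, 2066 remained single and 119 (5.45%) fell into 57 groups, of which 5 held 3 regions and none more. Of these, the group on chromosome 2 from 151016477 to 151025003 includes the region 12 bp from a WT SMC3 peak. The others were on chromosome 14 from 67175914 to 67184720 and from 79502624 to 79517685, chromosome 16 from 88557922 to 88566576 and chromosome 20 from 4646602 to 4664304. With gaps of up to 50 kb the largest group had 4, on chromosome 16 from 27971266 to 28007137.

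They were found on all autosomes at similar rates. Their share of the regions of a chromosome ran from 1.74% (22) to 3.01% (20). The median log2 ratio of Q592* to WT was positive on all 22 autosomes, from 0.76 (16) to 1.00 (7) for GATA2 and from 0.54 (7) to 0.76 (19) for RUNX1. Between 75 and 100 Mb of chromosome 13 there were 27 (1.24% of the 2185). Their median log2 ratio was 0.89 for GATA2 and 0.48 for RUNX1, against 0.90 and 0.61 for the rest. The ratios over all regions of this segment were not set beside these few.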

How the data were processed

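The 6 deposited files list peaks, 1 list for each line and target, taken as pooled over the libraries of a group from the word merge in their peak names. The submitters' processing notes name hg19, MACS2, Picard and Bowtie2, with no versions or settings. The deposited fold enrichment was read as the ratio of ChIP pileup to local background at the summit, with 1 added to each. The deposited −log10 p and −log10 q belong to the same summit, and the deposited score, 10 times the −log10 q, was not used. The deposited summit offset gave positions.

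MACS2 computes fold and p from a whole number of reads, so summit reads, local background and depth were recovered from the deposited values. They fitted a whole number for 100% of peaks to within 0.002 of the −log10 p, against at most 1.71% with the worth of a read set wrong by 3%. Reads per M assume an effective genome of 2700000000 bp and a fragment as long as the narrowest peak. The background totals were equal for Q592* GATA2 and RUNX1 (78.0 M) and for WT RUNX1 and SMC3 (86.7 M), so these may share inputs.

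A list's strongest peak in a region stood for it. Intervals of medians are binomial over regions. Functions were tested on simulated data. Named regions are the 10 with the best weakest percentile over the 4 factor lists, 5 with the highest and 5 with the lowest mean ratio among those above the median by that percentile, and 3 farthest from and 3 nearest to SMC3. Regions, lists and rules were chosen with earlier results of these data known, and the gaps for grouping neighbouring regions after the regions were seen. Genes, promoters and motifs, which need hg19 annotation or sequence, were not analysed here, so no gene is assigned. Python 3.11.15, numpy 2.4.6, pandas 2.3.3, scipy 1.17.1, statsmodels 0.14.6 and matplotlib 3.10.9 were used.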

Additional observations from a re-analysis of the deposited data

How the results depend on the processing

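No paired analysis was possible because the lists are pooled and carry no replicate numbers; for the same reason no library could be left out. Planned shares at promoters, with motifs and near listed genes were not run. The 4 alternatives on local background, genome-wide background, the Q592* RUNX1 list and SMC3 lists of equal length over the same regions were chosen after seeing the data. The number of regions ranged from 1455 (local background under 3) to 2501 (without the Q592* RUNX1 list). No median ratio changed sign, which says little, because nearly all regions had higher coverage in Q592* to begin with. Of 62 values under the alternatives, 21 moved. A median moved if it left the 95% interval of the reported one, and the number of regions if it changed by more than 1.5-fold. With a −log10 q of at least 10, where weak SMC3 peaks also drop out, 1065 of the 2301 regions were among those reported, and the median log2 ratio was 0.94 (GATA2) and 0.69 (RUNX1), the distance between the factors 28 bp in Q592* and 31 bp in WT, and that to SMC3 24.0 kb and 20.7 kb. With equal list lengths 1708 of 2391 regions were, the ratios were 0.93 and 0.68 and the SMC3 distance 18.7 kb in Q592* and 18.7 kb in WT. The deposited fold gave ratios of 0.61 and 0.37, and pileup over the genome-wide background 0.83 and 0.57. A local background under 3 gave 0.57 for RUNX1 and SMC3 distances of 23.4 kb in Q592* and 17.4 kb in WT. With equal SMC3 lists alone the WT distance was 19.7 kb. Without the Q592* RUNX1 list the GATA2 ratio was 0.87, and without regions that have SMC3 within 1000 bp the WT SMC3 distance was 16.2 kb. The cause of these differences was not tested. Peaks under the lists' threshold limit every statement about missing SMC3.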

Other observations

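The balance between the factors differed between classes of region. Among regions without SMC3, RUNX1 had more summit reads per M than GATA2 at 456 (20.9%) in Q592* and 689 (31.5%) in WT. At regions with SMC3 in both lines this held for 10.6% in Q592* and 14.1% in WT. The antibodies differ, so the values compare classes and not the amounts of the proteins. In both lines alike, RUNX1 was above GATA2 at 403 of the 2185 regions, whose median RUNX1 coverage was 1.08 reads per M in Q592* and 0.659 in WT, with GATA2 at 0.793 and 0.446. At the 1443 regions with GATA2 above RUNX1 in both lines the RUNX1 medians were 0.674 and 0.439 and the GATA2 medians 1.44 and 0.763. The split was made on these same coverage values, so the medians of coverage are a description. The 403 had a median width of 387 bp and the 1443 had 482 bp.

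The lines differed in which calls kept regions just short of the rule, in the same direction as over the whole lists. Without SMC3, 2061 regions had GATA2 in both lines and RUNX1 in Q592* alone, against 316 with RUNX1 in WT alone, which are 45.2% and 6.93% of the 4562 with GATA2 in both lines and any RUNX1. Over all 16570 autosomal regions with RUNX1 the shares were 44.1% and 9.37%. RUNX1 in both lines went with GATA2 in Q592* alone at 413 and with GATA2 in WT alone at 34, which are 15.7% and 1.29% of 2632. Over all 62233 regions with GATA2 they were 39.9% and 7.97%. The GATA2 shares were thus lower than over the whole lists. The 2632 regions all had RUNX1 in both lines and no SMC3, which the wider set does not require. Outside the autosomes 53 further regions met the rest of the rule, 45 on X and 8 on Y.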
